A study of Mus musculus with 38 samples.

Results

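This account concerns 10 genes whose products are known to oppose, or at least to modulate, the action of vasopressin in the collecting duct: the prostaglandin genes Ptgs1, Ptgs2, Ptger1, Ptger3 and Ptger4, the endothelin genes Edn1 and Ednrb, the ATP receptor genes P2ry2 and P2rx4, and Casr. They were chosen by name. All 10 were found among the 55416 genes of the RNA-seq table of β-catenin genotypes, 3 were among the 5035 genes of the RNA-seq table of the dDAVP infusion, and 247 of 270806 ATAC-seq peaks carried one of their names.

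The series measured RNA and open chromatin in cortical collecting ducts (CCDs) dissected by hand from mouse kidney. In the first RNA-seq experiment, wild-type C57BL/6 mice had received saline (4 libraries) or dDAVP (4 libraries) for 5 days, where dDAVP is desmopressin, a vasopressin analog selective for the V2 receptor. ATAC-seq, which reads where a transposase can cut chromatin, compared 3 saline with 3 dDAVP libraries after the same 5 days, each made from 3 ducts per the labels. The second RNA-seq table held 24 libraries, 3 for each of 4 WT and 4 MT units, where MT marks mutation of the S552 site of β-catenin, which protein kinase A phosphorylates. The labels of those 24 libraries conflicted: all carried a dDAVP treatment for 5 days and the genotype C57BL/6, WT and MT could be told only by title, and the table's own name stated the absence of vasopressin. Aqp2, the vasopressin-regulated water channel, had unit means of 11230 to 27630 TPM there, against 20170 ± 1573 TPM in the saline and 60870 ± 8577 TPM in the dDAVP libraries (SD, n = 4 each) of the first experiment, which was tabulated separately. One dDAVP RNA-seq library was titled as the fourth duct sample but with the dDAVP number 3. Whether a unit or a library came from 1 animal was not stated, so the p-values measure the spread between these samples, which may be technical.

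Vasopressin acts on principal cells through the V2 receptor, cAMP and protein kinase A, and its effect on water and sodium transport is restrained by signals made locally along the tubule. Prostaglandin E2 is made from arachidonic acid by the cyclooxygenases and a terminal synthase, and acts through the EP receptors: EP1 (Ptger1) raises cytosolic calcium, EP3 (Ptger3) couples to inhibitory G proteins and lowers cAMP, and EP4 (Ptger4) couples to the stimulatory G protein and raises it. Endothelin-1 acts on collecting duct cells through the ETB receptor (Ednrb), extracellular ATP acts through the G protein-coupled receptor P2Y2 (P2ry2) and the ion channel P2X4 (P2rx4), and the calcium-sensing receptor (Casr) reads extracellular calcium.

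Promoter sequences are shown for 4 of the genes because an ATAC-seq peak that the authors' table called lower with dDAVP overlapped the window from 250 bases before to 50 bases after the start site, and because the letters of at least 1 searched motif were found there. The sequences are from RefSeq on GRCm38.p6, the build that corresponds to mm10, where all but Ptger1 matched an entry by symbol, and were read 5′ to 3′ on the strand of the gene. Capitals mark the letters of a motif on either strand. The windows lie at chr13:42301226-42301525 (plus strand) for Edn1, chr5:122707294-122707593 (plus strand) for P2rx4, chr7:101012004-101012303 (minus strand) for P2ry2 and chr3:157566626-157566925 (plus strand) for Ptger3.
Edn1: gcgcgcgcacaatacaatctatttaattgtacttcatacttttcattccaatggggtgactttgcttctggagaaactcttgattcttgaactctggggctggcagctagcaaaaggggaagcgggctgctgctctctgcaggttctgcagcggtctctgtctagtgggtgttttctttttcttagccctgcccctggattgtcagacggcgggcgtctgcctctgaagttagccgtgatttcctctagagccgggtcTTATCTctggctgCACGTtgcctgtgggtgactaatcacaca
P2rx4: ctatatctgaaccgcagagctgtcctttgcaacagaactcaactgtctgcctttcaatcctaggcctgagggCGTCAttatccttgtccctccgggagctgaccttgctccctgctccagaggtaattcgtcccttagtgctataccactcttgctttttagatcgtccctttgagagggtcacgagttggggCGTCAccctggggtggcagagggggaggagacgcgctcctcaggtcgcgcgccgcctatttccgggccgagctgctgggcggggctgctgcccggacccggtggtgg
P2ry2: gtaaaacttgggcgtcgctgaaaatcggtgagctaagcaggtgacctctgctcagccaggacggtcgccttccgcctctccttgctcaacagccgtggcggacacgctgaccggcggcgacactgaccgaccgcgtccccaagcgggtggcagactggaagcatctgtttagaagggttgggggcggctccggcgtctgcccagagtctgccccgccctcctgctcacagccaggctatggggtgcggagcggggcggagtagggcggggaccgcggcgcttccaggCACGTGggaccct
Ptger3: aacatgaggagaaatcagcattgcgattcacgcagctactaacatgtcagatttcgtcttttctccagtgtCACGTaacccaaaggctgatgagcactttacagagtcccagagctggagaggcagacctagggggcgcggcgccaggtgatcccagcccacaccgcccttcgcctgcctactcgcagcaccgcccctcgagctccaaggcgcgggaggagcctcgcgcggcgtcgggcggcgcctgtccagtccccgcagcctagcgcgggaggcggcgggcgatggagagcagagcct
Searched on both strands were the cAMP response element TGACGTCA, its core TGACG, the AP-1 site TGANTCA, the hypoxia response core ACGTG, the TATA box TATAAA and the GATA site AGATAA. Of 32851 promoter windows of the same length in the table, 1.79% held the full cAMP response element, 20.8% its core, 7.81% the AP-1 site, 19.6% the hypoxia core, 13.6% the TATA box and 11.2% the GATA site. The P2rx4 window held the core of that element on the minus strand at -178 and -57 from the start site, and the Edn1 window held the GATA site at 9 and the hypoxia core at 22, both after the start. The hypoxia core was found on both strands in the P2ry2 window, at 38 and 39, where the matches overlap as the palindrome CACGTG (in a second P2ry2 window of the table, chr7:101011949-101012248, whose start site lies downstream, the same letters fall before the start, at -18 and -17), and on the minus strand of the Ptger3 window at -179. The windows of Ptgs2 and Ednrb, which no called peak overlapped, held the core TGACG of the cAMP response element, at 14 and -203, and the Ptgs2 window also held the hypoxia core, at 17 and 18. The full cAMP response element was in none of the windows of the 9 genes with an entry, and the Ptgs1 window, which a called peak did overlap, held none of the 6 motifs. These are matches of letters only.

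The 10 genes covered a wide range of transcript level in the CCD. Over the 4 WT units, the order by mean TPM, a unit normalised for transcript length, was Ptgs1, Ptger1, P2rx4, Casr, Ptger3, Ednrb, Ptger4, P2ry2, Edn1 and Ptgs2. Adjacent genes in this order did not overlap in their unit means for P2rx4 and Casr, Ednrb and Ptger4, P2ry2 and Edn1, and Edn1 and Ptgs2, and overlapped in the other 5 cases. Since these are bulk samples, a lower level from fewer cells of a type cannot be told apart from less RNA per cell.

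**Figure D1:**
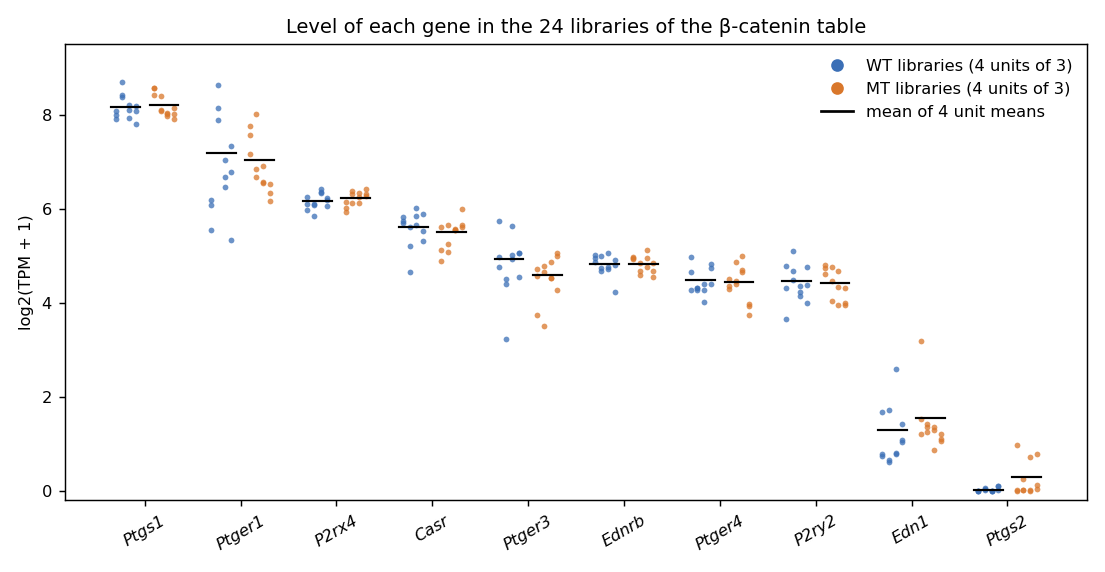
Level of each of the 10 genes as log2(TPM + 1) in the 12 WT (blue) and 12 MT (orange) libraries, with the 3 libraries of a unit stacked and a black bar at the mean of the 4 unit means. Ptgs1 lies highest, Ptger1 spreads most widely among the highly expressed genes, Edn1 and Ptgs2 lie near the floor, and the WT and MT points overlap in each gene.

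Of the 2 cyclooxygenases, which catalyse the first committed step of prostaglandin synthesis, the CCD held transcripts of Ptgs1 (ENSMUSG00000047250, chr2:36216742-36258593) and hardly any of Ptgs2 (ENSMUSG00000032487, chr1:150100031-150108234). Ptgs1 unit means were 253.4, 361.7, 269.2 and 261.0 TPM in WT 1 to 4 and 365.9, 292.4, 257.3 and 258.9 TPM in MT 1 to 4. WT 2 and MT 1 stood above the other 6 units. In the same 24 libraries Ptgs2 never exceeded 0.98 TPM and was listed at 0 in 6 WT and 2 MT libraries. Ptges, the inducible prostaglandin E synthase, was at 260.2 ± 44.55 TPM in WT units (SD, n = 4), Ptges2 at 122.4 ± 8.51 TPM and Pla2g4a, which releases arachidonic acid, at 26.54 ± 2.25 TPM. Hpgd, which degrades prostaglandin E2, was at 22.65 ± 6.19 TPM.

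Among the EP receptors, Ptger1 (ENSMUSG00000019464, chr8:83666644-83672756) was the most abundant and the most variable. Its unit means were 61.60, 303.1, 106.0 and 102.7 TPM in WT 1 to 4 and 181.3, 158.0, 101.7 and 80.27 TPM in MT 1 to 4, a span of 4.92 times. WT 2 and MT 1 were again the highest units, and WT 1 the lowest. Single libraries ran from 39.10 TPM to 394.9 TPM with a median of 105.1 TPM, and the SD on the log2 scale was 0.78 between units and 0.52 between libraries of a unit.

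The Gi-coupled receptor gene Ptger3 (ENSMUSG00000040016, chr3:157566821-157644758) had unit means of 36.17, 16.72, 36.46 and 29.03 TPM in WT 1 to 4 and 20.18, 20.42, 24.06 and 27.29 TPM in MT 1 to 4. Here WT 2 and MT 1 were the lowest of their groups, the opposite of their place for Ptger1. Ptger4 (ENSMUSG00000039942, chr15:5233399-5244187) ran from 13.77 TPM in MT 4 to 26.68 TPM in MT 3, with WT units from 17.90 to 24.36 TPM. Ptger2, the fourth EP receptor gene, was at 0.09 ± 0.06 TPM in WT units (SD, n = 4), whereas Ptgfr, the receptor for prostaglandin F2α, stood at 143.1 ± 9.61 TPM, a level like that of Ptger1.

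The endothelin pair was unequal. Edn1 (ENSMUSG00000021367, chr13:42301476-42307990), which encodes the ligand endothelin-1, had unit means of 1.19, 1.14, 2.18 and 1.28 TPM in WT 1 to 4 and 3.77, 1.55, 1.29 and 1.18 TPM in MT 1 to 4. The highest unit mean of each group came from a single library: library 3 of WT 3 held 5.06 TPM against 0.73 and 0.76 TPM in the other two, and library 2 of MT 1 held 8.12 TPM against 1.31 and 1.89 TPM. Its SD between libraries of a unit, 0.61 on the log2 scale, was larger than that between units, 0.30. Edn3, another endothelin gene, was at 104.1 ± 3.74 TPM in WT units (SD, n = 4), and Edn2 at 0.13 ± 0.08 TPM.

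Ednrb (ENSMUSG00000022122, chr14:103814615-103844508), the ETB receptor gene, was among the steadiest of the 10: unit means were 29.82, 27.02, 27.92 and 24.59 TPM in WT 1 to 4 and 29.96, 25.13, 30.08 and 25.01 TPM in MT 1 to 4, a span of 1.22 times. Its span in the annotation overlaps that of a predicted gene, Gm35197. Ednra, the ETA receptor gene, was at 0.40 ± 0.25 TPM in WT units (SD, n = 4). Ednrb is also known from vessels, so endothelial genes are given beside it. Pecam1 ran from 3.93 to 17.48 TPM over the 24 libraries and Cdh5 from 0.17 to 2.00 TPM, while Emcn ran from 16.90 to 64.64 TPM and Plvap from 40.86 to 229.6 TPM. Over the 8 units, the summed level of 7 endothelial genes ran from 126.3 to 257.7 TPM and Ednrb had r = 0.31 with it (Spearman's rho 0.43; permutation p = 0.444, adjusted p = 0.628), or 0.75 (p = 0.104) without WT 2 and WT 3. The part of endothelial RNA in the Ednrb level was not tested.

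Both ATP receptor genes were present. P2rx4 (ENSMUSG00000029470, chr5:122707518-122729739) varied little, from 63.74 TPM in WT 2 to 81.57 TPM in WT 3, and MT units lay between 64.47 and 79.75 TPM. Its span overlaps that of Camkk2, a kinase gene whose unit means ran from 60.92 to 130.3 TPM with the highest value in WT 2, where P2rx4 was lowest. The sources used here do not say whether counting used strand, so where any of the 10 genes overlaps another, reads shared by both may not be told apart. P2ry2 (ENSMUSG00000032860, chr7:100996568-101012053) had unit means of 18.97, 26.49, 18.09 and 20.28 TPM in WT 1 to 4 and 25.34, 20.86, 19.42 and 16.18 TPM in MT 1 to 4, with WT 2 and MT 1 again the highest. Adora1, the adenosine A1 receptor gene, was at 42.21 ± 13.71 TPM in WT units (SD, n = 4) and P2ry14, a receptor for UDP-sugars, at 33.63 ± 17.59 TPM. Of the other P2Y and P2X genes listed, none exceeded the 2.74 ± 0.35 TPM of P2ry6 in WT units.

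Casr (ENSMUSG00000051980, chr16:36490585-36562141) had unit means of 53.11, 35.90, 56.42 and 47.44 TPM in WT 1 to 4 and 36.95, 39.72, 46.08 and 53.52 TPM in MT 1 to 4. WT 2 and MT 1 were the lowest of the 8 units, as they were for Ptger3. Casr and Ptger3 are both known from the thick ascending limb, the segment that runs beside the CCD in the cortex, so its defining genes are given here. Unit means of Slc12a1, the sodium-potassium-chloride cotransporter of that segment, ran from 0.06 TPM in MT 1 and 0.13 TPM in WT 2 to 156.7 TPM in WT 1, and Umod from 7.27 TPM in WT 2 to 862.6 TPM in WT 1. The high means came mainly from single libraries. In WT 1 libraries 1 to 3, Slc12a1 was at 469.7, 0.13 and 0.29 TPM and Umod at 2545, 25.12 and 17.06 TPM. Casr was at 55.80, 51.17 and 52.35 TPM in these libraries, and Ptger3 at 52.22, 25.99 and 30.29 TPM. Library 2 of WT 3 and library 1 of WT 4 held 80.92 and 143.2 TPM of Slc12a1. In WT 2 and MT 1, where Slc12a1 was near 0, Casr was at 35.90 and 36.95 TPM and Ptger3 at 16.72 and 20.18 TPM. The part of thick ascending limb RNA in these levels was not tested.

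The levels of several of the 10 genes followed summed marker genes over the 8 units, both of the CCD's own cell types and of neighbouring segments and stroma. The 9 genes that averaged at least 1 TPM were set against 11 marker lists, from which the genes described here had been removed, giving 99 relations of log2(TPM + 1) with p adjusted over all 99, of which 24 had an adjusted p under 0.05: 4 with principal cell, 5 with type A and 5 with type B intercalated cell markers, 4 with the fibroblast and mural cell list, and 2 each with thick ascending limb, macula densa and distal convoluted tubule markers. The points were unit means of WT and MT together, with 3 libraries behind each, and all values of a library share its total, since TPM is a share. Summed principal cell markers (9 genes, Aqp2 among them) were 49930 TPM in WT 2 and 44340 TPM in MT 1 and 25800 to 32550 TPM in the other 6 units, so these 2 units stood apart from the rest. Aqp2 alone was at 27630 TPM in WT 2, 22500 TPM in MT 1 and 11230 to 15450 TPM in the other 6. Over single libraries Fxyd4 ran from 3642 to 10860 TPM, but Hsd11b2 only from 2453 to 3512 TPM and Scnn1b from 845.1 to 1257 TPM. A relation with this sum therefore cannot be told apart from a relation with Aqp2. Summed type B intercalated cell markers (5 genes) were lowest in the same 2 units, at 3350 and 3641 TPM against 4227 to 5214 TPM. The lists moved together: over the 8 units, principal cell markers had r = 0.82 with type A and -0.92 with type B markers, type A had -0.96 with type B, and the fibroblast list had -0.95 with principal cell markers. A relation with one of these lists therefore cannot be told apart from a relation with the others. With 4 units per genotype, no correlation was computed within WT or within MT.

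Ptger1, Ptgs1 and P2ry2 were high where principal cell markers were high. For Ptger1, r was 0.94 over 8 units (rho 0.98, permutation p = 0.000174, adjusted p = 0.00393) and 0.86 (permutation p = 0.0264) over the 6 units without WT 2 and MT 1. The corresponding values for Ptgs1 were r = 0.97 (rho 0.98, permutation p = 0.000322, adjusted p = 0.00532) over 8 units and 0.76 (permutation p = 0.0944) over 6, so the relation did not pass without those 2 units. For P2ry2 the relation rested on the same 2 units: r was 0.87 (rho 0.74, permutation p = 0.01, adjusted p = 0.0452) over 8 and 0.19 (permutation p = 0.704) over 6. With type B markers P2ry2 had r = -0.96 (rho -0.95, permutation p = 0.000198, adjusted p = 0.00393) over 8 units and -0.82 (permutation p = 0.0444) over 6, and Ptger1 and Ptgs1 had r = -0.92 (adjusted p = 0.0157) and -0.93 (adjusted p = 0.033) by permutation over 8 units. Over the 6 units, r with type B markers was -0.71 for Ptger1 (permutation p = 0.11) and -0.63 for Ptgs1 (0.168). With type A intercalated cell markers the same 3 genes had r = 0.84 (Ptger1, permutation adjusted p = 0.0452), 0.84 (Ptgs1, 0.037) and 0.89 (P2ry2, 0.0262), and over the 6 units 0.51, 0.45 and 0.65, with permutation p of 0.251, 0.358 and 0.154. Over the 24 single libraries, which are not independent, r with principal cell markers was 0.92 for Ptger1, 0.95 for Ptgs1 and 0.72 for P2ry2.

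Casr and Ptger3 were high where type B intercalated cell markers were high. For Casr, r with these markers was 0.97 over 8 units (rho 1.0, permutation p = 2.48e-05, the smallest that the permutations can give, adjusted p = 0.00123), the 8 units fell in the same order by both measures, and r was 0.99 (permutation p = 0.00139) without WT 2 and MT 1. For Ptger3, r was 0.90 over 8 units (rho 0.93, permutation p = 0.00236, adjusted p = 0.0259) and 0.83 (permutation p = 0.0458) over 6. With type A markers the sign was the opposite: r was -0.98 for Casr (permutation adjusted p = 0.00327) and -0.93 for Ptger3 (0.0157), and -0.95 and -0.86 over 6 units (permutation p = 0.0111 and 0.0375). Casr also had r = -0.82 with principal cell markers (permutation adjusted p = 0.037), and -0.42 (p = 0.435) over 6. Ptger3 also had r = 0.90 with the summed thick ascending limb markers over 8 units (rho 0.90, permutation p = 0.0036, adjusted p = 0.0274) and 0.93 (permutation p = 0.00972) without WT 1 and WT 4. Casr had r = 0.80 with those markers (rho 0.74, permutation p = 0.0231, adjusted p = 0.0736) and 0.93 (permutation p = 0.00972) without WT 1 and WT 4. The high unit means of Slc12a1 and Umod in that list came mainly from single libraries. Over single libraries, r with the thick ascending limb markers was 0.56 for Ptger3 and 0.37 for Casr, against 0.73 and 0.88 with the type B markers. Whether either gene was read from type B cells, from attached thick ascending limb or from both was not tested.

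For Ptger4, Edn1, Ednrb and P2rx4, no relation with principal cell or type B markers passed: r with principal cell markers over 8 units was -0.28, 0.39, 0.01 and -0.60, with adjusted p between 0.236 and 0.986, and r with type B markers was -0.05, -0.28, -0.11 and 0.76, with adjusted p between 0.081 and 0.956. The last of these, for P2rx4, had an unadjusted permutation p of 0.0286 and was 0.77 over the 24 libraries. Ptgs1 had r = -0.98 with the fibroblast and mural cell list (permutation p = 2.48e-05, again the smallest possible, adjusted p = 0.00123) and -0.80 (permutation p = 0.00417) without WT 2 and MT 1, a list whose sum of 35.71 to 83.69 TPM came mainly from Dcn, at 18.65 to 100.5 TPM per library, while Col1a1 never exceeded 0.60 TPM. With the same list, r was -0.84 for Ptger1 (permutation adjusted p = 0.037), -0.89 for P2ry2 (0.0452) and 0.80 for Casr (0.0452). Without WT 2 and MT 1, r was -0.81 for Ptger1 (permutation p = 0.0264), -0.38 for P2ry2 (0.467) and 0.32 for Casr (0.572). Ptger1 also had r = -0.89 with distal convoluted and connecting tubule markers (permutation adjusted p = 0.0342), -0.82 with thick ascending limb markers (0.0452) and -0.83 with macula densa markers (0.0452). Over 6 units these were -0.82 (permutation p = 0.0514, without WT 2 and MT 3), -0.79 (0.0597) and -0.77 (0.0653), the last ones without WT 1 and WT 4. P2ry2 had r = -0.82 with the distal convoluted and connecting tubule list (permutation adjusted p = 0.0262), and -0.80 (permutation p = 0.0514) without WT 2 and MT 3. Ptger3 had 0.91 with macula densa markers (permutation adjusted p = 0.0262), and 0.93 (permutation p = 0.00972) without WT 1 and WT 4. The macula densa list without Ptgs2 holds Nos1 and Slc12a1. Nos1 never exceeded 0.57 TPM, and this list had r = 0.998 with thick ascending limb markers, so the 2 lists are not separate. The distal list came mainly from Calb1, with a median of 319.7 TPM over the 24 libraries, against 0.36 TPM for Slc12a3.

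**Figure D2:**
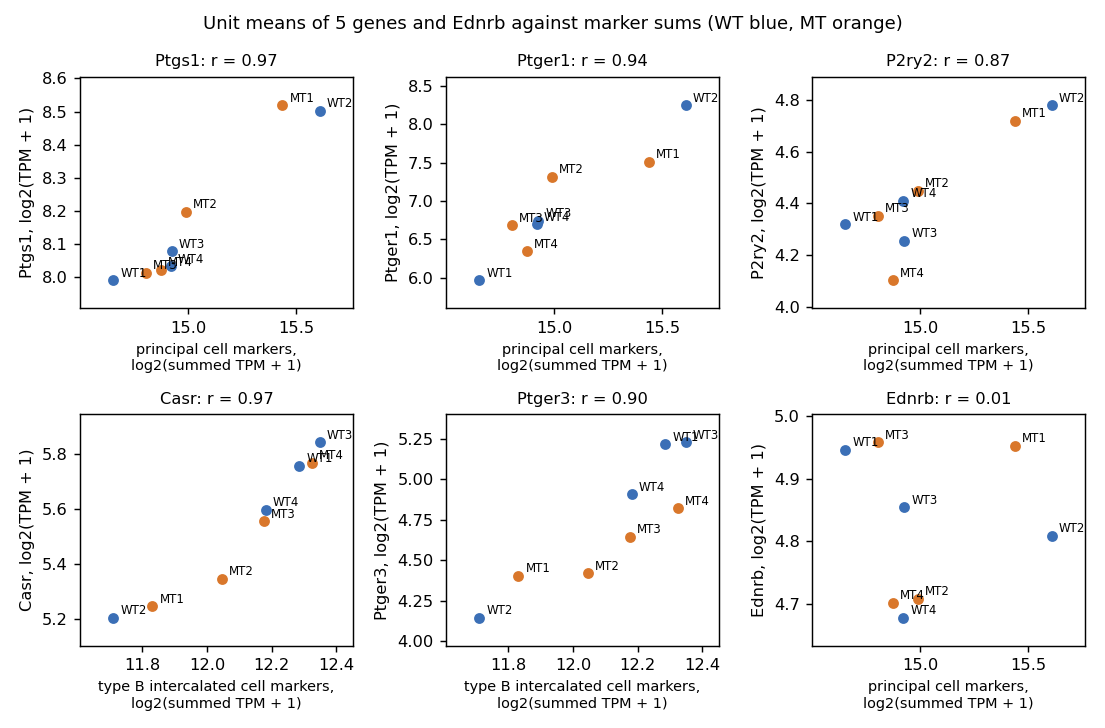
Unit means of Ptgs1, Ptger1, P2ry2, Casr, Ptger3 and Ednrb against summed markers, each as log2(TPM + 1), for 4 WT (blue) and 4 MT (orange) units, with r over the 8 units above each panel. Ptgs1, Ptger1 and P2ry2 climb with principal cell markers up to WT 2 and MT 1, Casr and Ptger3 climb with type B markers from the same 2 units upward, and Ednrb shows no order.

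The transcripts most like each gene over the 24 libraries, by Pearson r among 10528 genes averaging at least 5 TPM, are given as a description without a test. For Ptger1 they were Sbspon (r = 0.97), Wnt7b (0.96) and Anxa9 (0.96), and for Ptgs1 they were Lypd6b (0.97), Atp1b3 (0.96), a subunit of the sodium pump, and Capg (0.96). P2ry2 was most like Ephb2 (0.94), Lmo7 (0.89) and Slc26a2 (0.89). Casr was most like Insrr (0.93), the insulin receptor-related receptor gene, and Sgk2 (0.90). Ptger3 was most like Enpp1 (0.86), Gcgr (0.85), the glucagon receptor gene, and Tmem35a (0.85), and P2rx4 most like Chchd3 (0.86) and the mitochondrial genes Idh3b (0.86) and Atp5b (0.86). The nearest genes to Ptger4 were Ppp1r15b (0.89), Dnajb4 (0.88), a heat shock protein, and Srsf7 (0.87). Edn1 and Ednrb had no close companion: their nearest were Sgsh (0.70), Tet2 (0.67) and Plk2 (0.65), and Stambp (0.70) and Grap (0.66).

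The dDAVP infusion addressed what an excess of vasopressin signalling does in the CCD, and 3 of the 10 genes could be followed in it. None passed limma's test at an adjusted p of 0.05, where 35 of 5035 genes did (0.695%; 28 higher and 7 lower) and 553 had an unadjusted p under 0.05. The table listed only genes above 10 TPM in each of its 8 libraries. Of 7655 genes above 10 TPM in all 24 libraries of the β-catenin table, 4916 (64.2%) were listed. Of the 7 members above that level in all 24, Ptgs1, Ptger1 and P2rx4 were listed and Casr, Ednrb, Ptger4 and P2ry2 were not.

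Ptger1 stood at 76.12, 98.62, 62.33 and 184.2 TPM in saline libraries 1 to 4 and at 213.3, 202.5, 249.6 and 207.8 TPM in dDAVP libraries 1 to 4. All 4 dDAVP libraries lay above all 4 saline libraries, as they did for 3.56% of the genes in the table, and saline library 4 came close to them. The means were 105.3 ± 54.69 and 218.3 ± 21.34 TPM (SD, n = 4 each), a log2 difference of 1.17 (SE 0.29, 95% interval 0.52 to 1.81), with a limma p of 0.002147 and an adjusted p of 0.1335. The 2-sided exact permutation p was 0.0286, the smallest that 4 against 4 can give. Without saline library 4 the log2 difference was 1.47 and the limma adjusted p 0.005921, and over the leave-one-out fits the adjusted p ran up to 0.3672. Summed principal cell markers, most of which is Aqp2, were 31830 to 35340 TPM with saline and 70250 to 93780 TPM with dDAVP. Shared intercalated cell markers, 6 genes of which were listed, summed to 6369 to 9243 TPM with saline and 5022 to 6089 TPM with dDAVP, also without overlap. The groups did overlap for type A markers, at 533.9 to 788.1 TPM with saline and 579.1 to 811.4 TPM with dDAVP. They overlapped too for type B markers, at 2342 to 3815 and 1725 to 2403 TPM. Markers of other segments varied widely. Proximal tubule markers, 4 genes of which were listed, summed to 498.4 to 9159 TPM with saline and 1075 to 10290 TPM with dDAVP. Umod, of the thick ascending limb, was at 84.13 to 824.9 TPM with saline. With dDAVP it was at 5253 TPM in library 1 and at 20.95 to 100.1 TPM in the others. The part of cell composition or of other segments in the Ptger1 values was not tested.

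Ptgs1 stood at 193.3, 203.2, 257.0 and 185.9 TPM with saline and at 242.2, 243.7, 286.6 and 238.8 TPM with dDAVP. Saline library 3 lay within the dDAVP range, and the log2 difference was 0.28 (SE 0.16, limma adjusted p = 0.571). P2rx4 stood at 67.14, 67.71, 38.10 and 59.13 TPM with saline and at 41.98, 60.31, 69.79 and 44.43 TPM with dDAVP. The groups overlapped throughout, with a log2 difference of -0.09 (SE 0.28, 95% interval -0.72 to 0.53, limma adjusted p = 0.9287). Camkk2, which overlaps P2rx4, was at 89.64 ± 57.67 and 78.52 ± 3.72 TPM (SD, n = 4).

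**Figure D3:**
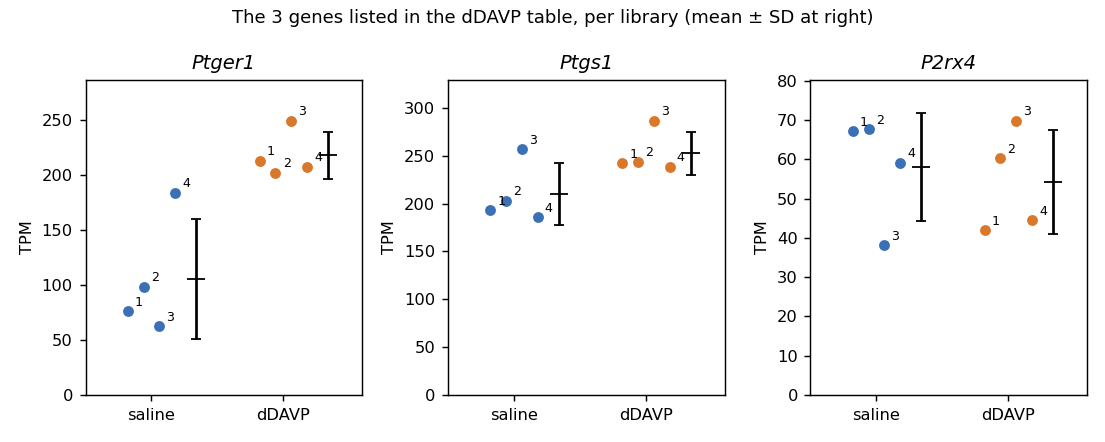
TPM of Ptger1, Ptgs1 and P2rx4 in each saline (blue) and dDAVP (orange) library, numbered by library, with mean ± SD of 4 at the right of each group. Ptger1 separates the groups, with saline library 4 at 184.2 TPM nearest to the dDAVP libraries, while the groups overlap for Ptgs1 and P2rx4.

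Other genes of these pathways were counted from 5 lists, which hold the members too. No gene of any list passed in either direction: 0 of 9 measured prostaglandin genes, 0 of 2 endothelin and nitric oxide genes, 0 of 3 purinergic and adenosine genes, 0 of 5 calcium-handling genes and 0 of 11 G protein relay genes, with 5 of these 30 at an unadjusted p under 0.05. Median log2 differences of the lists ran from -0.55 to 0.19, against -0.06 over all genes. Adora1, whose receptor couples to inhibitory G proteins, averaged 35.71 ± 11.83 TPM in saline and 62.92 ± 10.22 TPM in dDAVP libraries (SD, n = 4; log2 difference 0.84, limma adjusted p = 0.3088) with no overlap between the groups. Prkcz, an atypical protein kinase C gene, had 55.76 ± 18.13 and 29.77 ± 3.76 TPM (log2 difference -0.83, limma adjusted p = 0.3098). Calb1 had 567.1 ± 123.9 and 354.9 ± 88.20 TPM (limma adjusted p = 0.2579), and S100g, which like Calb1 encodes a calcium-binding protein of the distal nephron, had 2411 ± 3453 and 197.5 ± 247.7 TPM (limma adjusted p = 0.2631). Edn3 differed little, at 59.39 ± 17.37 and 56.54 ± 10.93 TPM (SD, n = 4; limma adjusted p = 0.9693), as did Ptges, at 217.6 ± 106.9 and 174.6 ± 48.47 TPM (limma adjusted p = 0.8546).

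The second RNA-seq comparison set MT against WT units. No gene passed limma's test among the 15013 tested (0%), with 683 at an unadjusted p under 0.05, and a limma fit of the 24 single libraries with the unit as a random effect called 1. The 9 genes tested had log2 differences between -0.30 (Ptger3) and 0.21 (Edn1), their adjusted p ran from 0.9694 to 0.9992, and the units of WT and MT overlapped in each. Ptger3 had 29.59 ± 9.24 TPM in WT and 22.99 ± 3.37 TPM in MT units (SD, n = 4; 95% interval of the log2 difference -0.83 to 0.23). Beside it, the summed thick ascending limb markers ran from 24.97 to 1632 TPM in WT and from 26.97 to 150.5 TPM in MT units. High unit means of Slc12a1 and Umod in these sums came mainly from single libraries. The part of these markers in the Ptger3 values was not tested. The intervals were narrowest for Ednrb, at -0.19 to 0.21, and P2rx4, at -0.15 to 0.26, and widest for Ptger1, at -1.01 to 1.11. In the 5 lists, 0 of 18 prostaglandin, 0 of 6 endothelin and nitric oxide, 0 of 13 purinergic and adenosine, 0 of 11 calcium-handling and 0 of 25 G protein relay genes passed. Gnai3, an inhibitory G protein subunit, had 74.44 ± 2.84 TPM in WT and 81.98 ± 2.93 TPM in MT (limma adjusted p = 0.9694), and Cldn16, a thick ascending limb claudin, had 7.60 ± 6.08 and 2.09 ± 0.72 TPM (limma adjusted p = 0.9694).

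**Figure D4:**
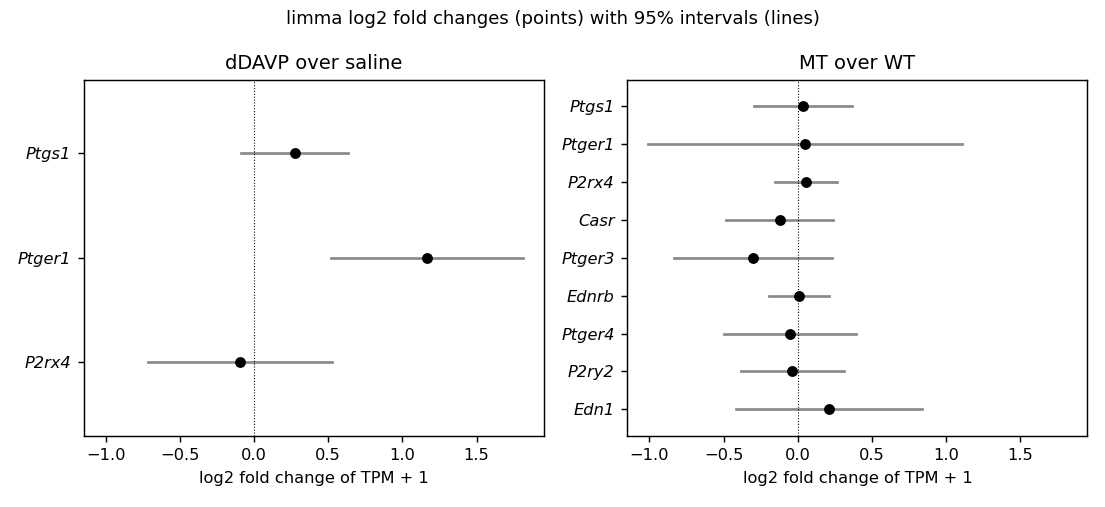
Log2 fold changes of TPM + 1 from limma (points) with 95% intervals (lines) for the 3 genes of the dDAVP table (left) and 9 genes of the β-catenin table (right). Ptger1 with dDAVP is the one interval that lies wholly above 0, and each MT interval spans 0.

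Ptgs2 lay below the minimum mean of 1 TPM and is given by its values. In WT libraries it was listed at 0 in 6 of 12 and at 0.01 to 0.08 TPM in the others, so that unit means were 0, 0.03, 0 and 0.06 TPM. In MT libraries it was listed at 0 in 2 of 12, and 1 library in each unit stood above the rest, at 0.98 TPM in MT 1, 0.20 in MT 2, 0.65 in MT 3 and 0.73 in MT 4. The MT unit means of 0.33, 0.07, 0.22 and 0.29 TPM all lay above the WT means, as those of 1.18% of the 28516 genes with a mean TPM above 0 and under 1 did. The 2-sided exact permutation p was 0.0286, the smallest possible, and limma without a minimum gave an adjusted p of 1.0. Levels this low cannot be read as a change, and depth is unknown because TPM keeps no record of it. Slc12a1, which the macula densa, a known site of Ptgs2 expression, shares with the thick ascending limb, averaged 58.40 ± 68.56 TPM in WT and 3.87 ± 4.43 TPM in MT units (SD, n = 4), with overlapping ranges.

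Chromatin at these genes was read from the authors' deposited ATAC-seq table, which gives a log2 signal per group and no value per library, so no spread between libraries can be given. Of 247 peaks named with the 10 genes, the authors' deposited table called 22 (8.91%) lower and 1 higher with dDAVP at an adjusted p of 0.05, against 5.98% lower and 0.846% higher of all 270806 peaks. Strong peaks were called lower more often everywhere: at a mean log2 signal of 5 or more, 20 of 67 named peaks (29.9%) were called lower, against 28.6% of all peaks of that strength, and 4 of 6 promoter peaks, against 25.8% of all 18508 promoter peaks. The median log2 fold of the 247 peaks was -0.22, against -0.17 over all peaks. The share of called peaks among strong peaks thus lay near the background. By gene, called lower were 6 of 36 peaks of Ptgs1, 6 of 44 of Edn1, 3 of 20 of Ptger4, 2 of 39 of Ptger3, 2 of 37 of Casr, 1 of 10 of Ptger1, 1 of 23 of P2ry2, 1 of 16 of P2rx4, 0 of 19 of Ednrb and 0 of 3 of Ptgs2.

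Edn1 held the called promoter peak with the most negative fold of the 10 genes. In the authors' deposited table the peak at chr13:42300635-42300888, 588 bases from the gene, went from a log2 signal of 6.36 with saline to 5.04 with dDAVP (log2 fold -1.20, adjusted p = 0.000209), where all peaks of like signal had a median fold of -0.36. The peak over the Edn1 window shown above, chr13:42301173-42301752, had 6.79 and 5.93 (fold -0.74, adjusted p = 0.00839; median of like signal -0.42). In the introns of Edn1, 3 further peaks were called lower in the authors' deposited table, with folds of -0.73, -1.43 and -0.60 (medians of like signal -0.42, -0.18 and -0.42), as was an intergenic peak 31185 bases away (fold -0.70, median -0.49), while the strongest Edn1 peak, 66121 bases away, was not called (fold -0.50, adjusted p = 0.0832). Edn1 transcripts were not listed in the dDAVP table, so no RNA value stands beside these peaks.

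The called promoter peaks of P2ry2 and Ptger1 lay close to the median of their signal class. In the authors' deposited table the P2ry2 promoter peak, chr7:101011408-101012477, had log2 signals of 8.71 and 8.06 (fold -0.53, adjusted p = 0.0219) and the Ptger1 promoter peak, chr8:83666203-83667100, had 9.01 and 8.43 (fold -0.46, adjusted p = 0.0303), where peaks of like signal had a median fold of -0.50. The peak over the P2rx4 start site, annotated as 5′ UTR at chr5:122707048-122708253, had 9.15 and 8.59 (fold -0.45, adjusted p = 0.0284; median of like signal -0.50), and that over the Ptger3 window, in exon 1 at chr3:157566680-157567851, had 6.82 and 6.06 (fold -0.64, adjusted p = 0.0262; median of like signal -0.42). The strongest peak named with Ptger1, chr8:83662402-83663195, lay 3449 bases from the gene in an intron of another transcript and was not called (fold -0.29, adjusted p = 0.188). For Ptger1 the promoter signal was lower with dDAVP while its transcript means were 105.3 and 218.3 TPM, a transcript difference that did not pass its test.

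Ptgs1 had called peaks around its start sites and upstream. The authors' deposited table gave a fold of -0.61 (8.94 to 8.21, adjusted p = 0.00433) for the intron 1 peak at chr2:36229887-36231427, which covers the Ptgs1 promoter window at chr2:36230176-36230475, and -0.51 (8.74 to 8.11, adjusted p = 0.0273) for chr2:36216438-36217715, which covers the start of the annotated gene span. All peaks of like signal had a median fold of -0.50, so the second lay at that median. The other called peaks were 3 intergenic ones with folds of -1.54, -0.73 and -0.79 and 1 in exon 4 with a fold of -0.56. Medians of like signal were -0.18, -0.49, -0.42 and -0.49 in that order. Casr had called peaks in intron 1 with folds of -0.76 and -0.47 in the authors' deposited table (medians of like signal -0.42 and -0.50). The peak over its start site had a fold of -0.35 (5.58 to 5.12, adjusted p = 0.53). Ptger4 had folds of -0.74 and -1.13 for intron peaks (medians of like signal -0.42 and -0.36) and -0.77 for an intergenic peak 17934 bases away (median -0.49). Its promoter peak did not pass (fold -0.37, adjusted p = 0.0942). A second Ptger3 peak, in intron 1, had a fold of -0.65 (adjusted p = 0.0496; median of like signal -0.36).

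The one peak called higher was an intergenic peak named with Ptger3, 69367 bases from the gene at chr3:157714125-157714391, which the authors' deposited table gave as 1.74 with saline and 3.64 with dDAVP (log2 fold 1.97, adjusted p = 0.0145). Its signal is weak, in a class of peaks whose median fold was -0.02. No peak of Ednrb was called: its strongest, over the start site, had a fold of -0.54 (adjusted p = 0.0547) in the authors' deposited table. Ptgs2 had 3 peaks, none above a mean log2 signal of 3.12 and none over its start site window, beside transcripts at or near 0 in the β-catenin table.

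**Figure D5:**
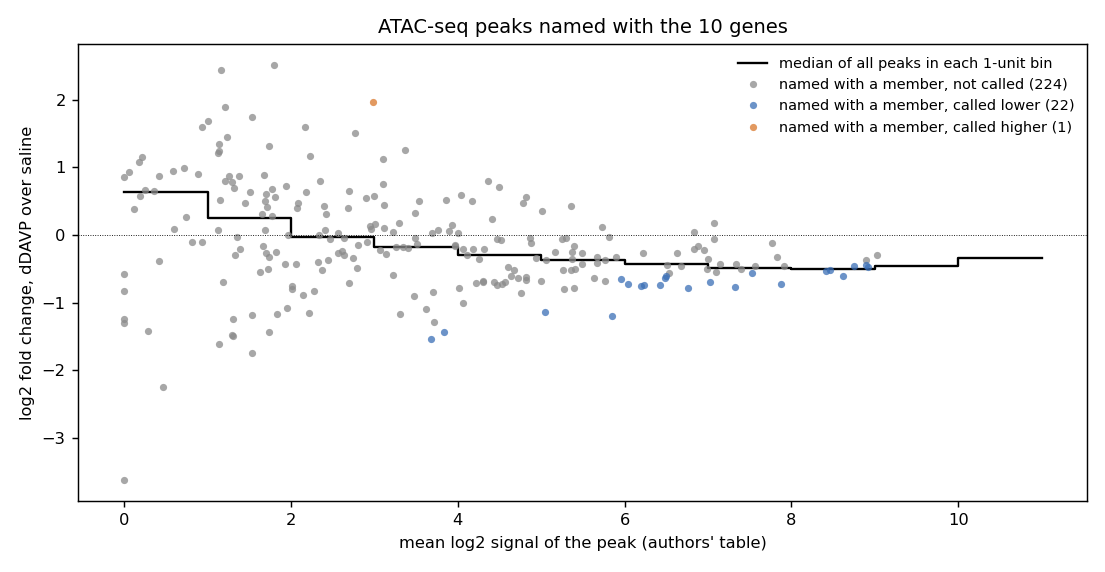
Log2 fold of dDAVP over saline against mean log2 signal for the 247 ATAC-seq peaks named with the 10 genes, from the authors' deposited table, with peaks called lower in blue, called higher in orange and not called in grey. The black steps give the median fold of all peaks per unit of signal, which goes from 0.64 in the weakest class to -0.50 in the class from 8 to 9. Most peaks called lower lie below or on that line, a place largely set by their being called for negative folds.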

How the data were processed

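RNA-seq values were TPM deposited by the authors, normalised by them for transcript length and library total. STAR, RSEM and mm10 are named for the series in the submitters' processing notes, as are cutadapt 3.4, Bowtie2, MACS2 and DiffBind, and no settings are given. Per the file headers, the dDAVP table kept only genes above 10 TPM in all libraries, and its 8 log2 copies of library columns, deposited by the authors, were not used. The ATAC-seq table deposited by the authors gives log2 signals per group, a log2 fold and a p-value with its adjusted value, used as given with no test of its own. TPM and group signals keep no depth, so depth is unknown and no counting interval is given.

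From these values, log2(TPM + 1) of genes averaging at least 1 TPM went into limma 3.58.1 (trended eBayes, 2-sided, Benjamini-Hochberg over all genes, threshold 0.05) in R 4.3.3, on 4 against 4 libraries or 4 against 4 means of 3 libraries. The fit was tested on simulated data. TPM fold changes on this scale understate changes of low genes. Correlations used exact permutation p over unit means. Members and lists were chosen with earlier results of these data known. The text names the 10 genes, Aqp2, genes of 5 pathway lists (up to 4 of smallest p per comparison, the others by level), up to 3 transcripts of highest r with each gene, every called peak and each promoter peak of highest signal. Levels of endothelin, thick ascending limb and overlapping genes were added after the values were seen, and some genes within these rules are not reported here. Gene spans and promoter windows came from RefSeq on GRCm38.p6. Another pseudocount, minimum, scaling, a replicate block, a fit of single libraries and leaving out each sample were tried as alternatives.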

Additional observations from a re-analysis of the deposited data

Results flagged for a closer look

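In 26 groups of 4 samples, the highest or lowest sample was compared with its nearest neighbour relative to the range of the group, and in 3 groups it stood apart. Chance alone marks about 1 in 20 such groups. Ptgs1 was at 361.7 TPM in WT 2, against 253.4 to 269.2 TPM in the other WT units. With dDAVP, library 3 held 286.6 TPM of Ptgs1, and the other dDAVP libraries ran from 238.8 to 243.7 TPM. Edn1 was at 2.18 TPM in WT 3, against 1.14 to 1.28 TPM in the other WT units, through a single library at 5.06 TPM.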

How the results depend on the processing

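Members passing the dDAVP test numbered 0 in every alternative except without saline library 4, where Ptger1 passed (leave-one-out range 0 to 1). Genes called with dDAVP numbered 35, 8 with a replicate block and 7 to 47 leaving out 1 library, fewest without dDAVP library 3. Replicate numbers did not pair MT with WT units. Deviations of same-numbered units correlated at -0.03 to 0.04, and 0 of 8 samples correlated best with their own number. In the dDAVP experiment same-numbered libraries correlated at -0.15 to 0.23, and 5 of 8 samples correlated best with their own number. Whether those libraries were paired by number stays undecided. Under the replicate block Ptger1 had an adjusted p of 0.2728. MT calls numbered 0, 1 with single libraries and the unit as random effect, and 0 to 5 leaving out 1 unit, most without MT 4. Peaks of members called lower numbered 7 of 247 at an adjusted p of 0.01. The share of all peaks at that threshold is not given here, so this count cannot be set against a background. MT log2 differences changed sign leaving out 1 unit for Ptger1 (-0.27 to 0.49), Ptger4 (-0.18 to 0.12), Ptgs1 (-0.074 to 0.15), Edn1 (-0.0486 to 0.34), Ednrb (-0.0397 to 0.0512) and P2ry2 (-0.14 to 0.0773), with unit medians for Ptger1 (-0.092) and with median-of-ratios scaling for Ednrb (-0.0023); the P2rx4 dDAVP difference ran from -0.28 to 0.015. With quantile normalisation, Aqp2 had a log2 difference of 0.42 with dDAVP (limma adjusted p = 0.6957). That scaling gives every library the same distribution of values, which limits how far a very high gene can differ. In the main fit the Aqp2 difference was 1.59 (limma adjusted p = 0.002798). Leaving out 1 library it ran from 1.50 to 1.66 and was called in all 8 fits. The median Edn1 level of 12 WT libraries was 0.91 TPM against a mean of 1.45. Correlations over 8 and 6 unit means were added after seeing the data. With principal cell markers over 6, Ednrb had r = -0.74 (permutation p = 0.0917) and P2rx4 0.61 (permutation p = 0.19). Over 8 these values were 0.01 and -0.60. The causes were not tested.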
